A study of Mus musculus with 6 samples.

Results

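Actin filaments push the front of a crawling cell forward, shape phagocytic cups and anchor adhesion sites, and 33 genes of this machinery were followed in microglia with and without the adaptor Dap12. Members were taken from a named list, and a gene was counted as measured where a probe set (a group of short oligonucleotides on the array that reads a transcript) carried its symbol and no other. Of the 33 genes, 30 were measured in this way, out of 12875 genes tested, and the brightest probe set over the 6 arrays stood for each gene. All 30 were bright enough to be tested. Arpc1b is not analysed here because both of its probe sets also name Gm5637, and Actr2 and Arpc3 are not analysed here. The 6 arrays each carried RNA of a primary culture of mouse microglia, the resident macrophages of the brain, with 3 cultures labelled as Dap12 knockout and 3 as wild type. The labels give the genotype alone; strain, sex, age, allele and any treatment are not stated in them, nor whether a culture came from 1 animal or several. The titles of 4 arrays carry 2 joined numbers, and those of wild-type array 2 and Dap12-deficient array 3 carry 1 number, whose meaning is not stated.

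Microglia crawl and survey with ruffles and thin processes. New branches of filament are nucleated by the Arp2/3 complex, which is switched on by WASP and WAVE proteins, and unbranched filaments are extended by formins and Ena/VASP proteins. Small GTPases such as Rac and Cdc42 turn surface signals into these events, with DOCK proteins and ELMO acting as activators of Rac and Cdc42. Bundling, capping and severing proteins then fix the shape and lifetime of filaments, and talin, vinculin and the ERM proteins tie them to adhesion receptors and to the membrane. Dap12, encoded by Tyrobp, passes on signals of receptors such as Trem2 through the kinase Syk, upstream of Rac activators.

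Signals are deposited linear intensities whose trimmed mean was the same on every array, with array medians of 11.9 to 16.5. Tyrobp gave 5584, 7271 and 5396 in wild-type arrays 1 to 3, against 125, 96.4 and 96.2 in the Dap12-deficient ones, in the direction the labels name, a log2 difference of -5.64 (limma adjusted p = 8.14e-07). Of 12 listed microglial markers, 11 were measured. Csf1r, at 5439 to 9522, and C1qb, at 4651 to 7191, were bright, while Spi1, at 61.3 to 219, and Itgam, at 86.7 to 185, were dimmer. Of the 11, 10 were lower without Dap12 and 1, Cx3cr1, was higher, beside 7055 of 12875 genes that were lower. Markers of other cells were present too. The summed signal of 12 oligodendrocyte markers was 7731 to 11338 on wild-type and 3780.1 to 9054 on Dap12-deficient arrays, and that of 11 astrocyte markers 590.2 to 1003 on wild-type and 542 to 1535 on Dap12-deficient arrays. That of 8 lymphocyte and granulocyte markers did not overlap, at 185 to 257 on wild-type and 110 to 134 on Dap12-deficient arrays. That gap rested on Ighm, the largest part of each sum, which gave 214, 207 and 154 against 48.9, 72.8 and 79.2 (limma adjusted p = 0.179). Of the 4 bright enough to be tested, 2 were higher and 2 lower without Dap12. The log2 differences were 0.27 for S100a8 and 0.31 for Mpo, against -1.33 for Ighm and -0.04 for Cd79b. Among endothelial markers, Pecam1 stayed at 0.597 to 2.35, under the signal of 8.51 needed for testing. In such bulk RNA, fewer cells of a type and less RNA per cell cannot be told apart. Labels do not say whether cultures came from separate animals, so each p-value measures the spread between these cultures, and 3 arrays per group limit the precision.

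None of the 30 genes passed the test between Dap12-deficient and wild-type cultures. The limma adjusted p, taken over 27022 probe sets, was 0.335 or more for every member, and of all probe sets 0.0074% passed at an adjusted p under 0.05. Without adjustment, 2 of 30 members had p under 0.05, Gsn and Evl, a share of 6.67% against 9.63% of 12875 genes. Both were at lower signal in Dap12-deficient cultures, as were 4.87% of all genes at that p. On the log2(signal + 16) scale, the differences of the members, Dap12-deficient minus wild-type, ran from -0.81 to 0.46. Their median was -0.13, with 18 members below 0 and 12 above, beside a median of -0.03 over all genes, of which 7055 lay below 0 and 5820 above. Scaling every array to a common median instead moved the median of all genes to -0.23 and that of the members to -0.36, with 25 members below 0, so directions of small differences depend on the scale used.

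The intervals show what sizes these arrays could have missed. For 23 of 30 members the 95% interval of the difference lay between -1 and 1, that is, inside a doubling or halving on this scale. The other 7 intervals, of Evl, Vasp, Gsn, Rac2, Cap1, Tln1 and Msn, reached past -1 or 1. Arrays did not overlap between groups for 3 members. Gsn and Evl had all Dap12-deficient arrays below all wild-type arrays, which held for 8.85% of all genes. Cd44 had all Dap12-deficient arrays above, which held for 7.54% of all genes.

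**Figure D1:**
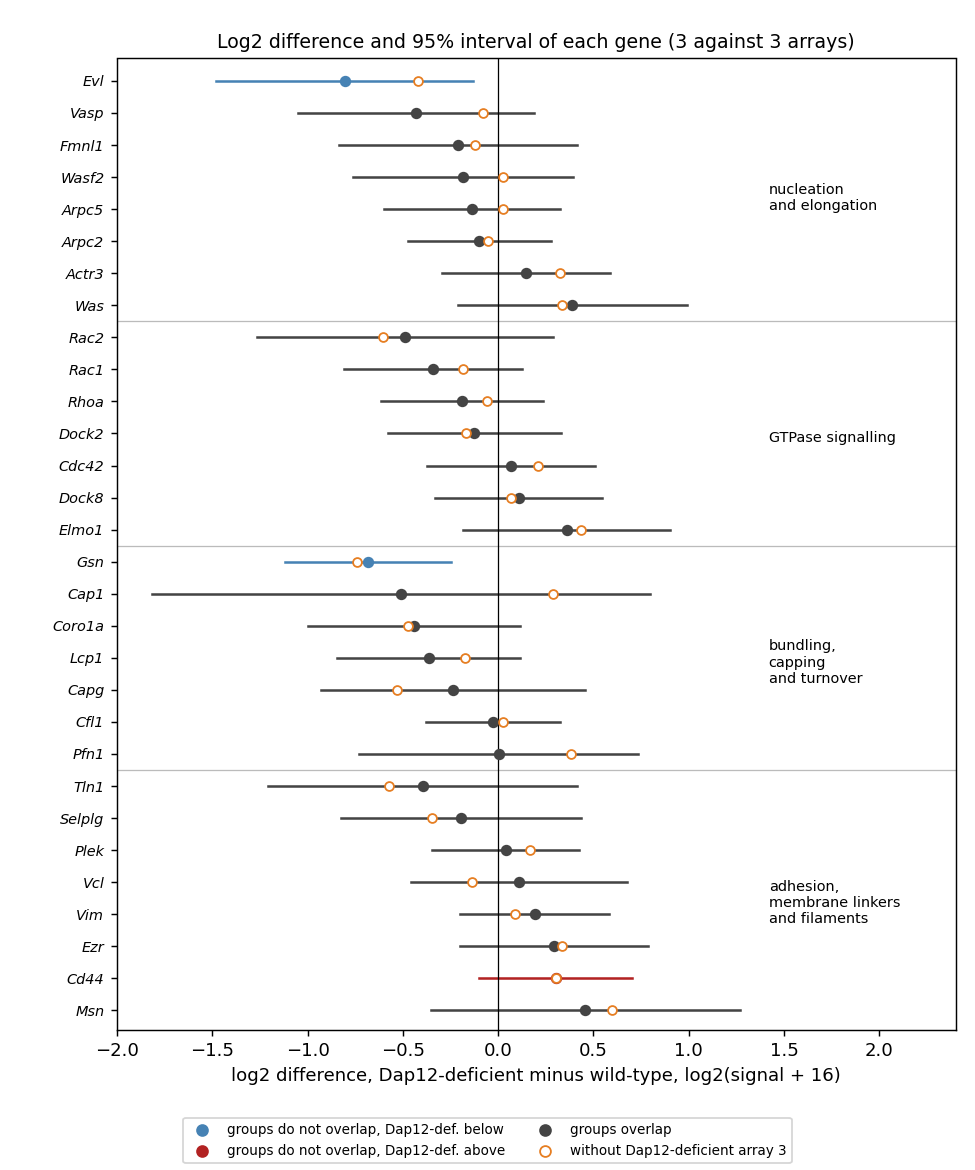
Log2 difference (Dap12-deficient minus wild-type, log2(signal + 16), x axis) of 30 genes (y axis, grouped by role) with its 95% interval, from 3 against 3 arrays. Filled points are coloured by whether the groups' arrays overlap, and open orange points give the difference without Dap12-deficient array 3; the intervals of Gsn and Evl lie below 0, and the open point of Evl moves from -0.81 to -0.42.

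Filament nucleation was represented by 3 subunits of the Arp2/3 complex, and their differences were small. Actr3, which encodes the actin-related subunit Arp3, gave 4057, 4882 and 3742 in the wild type against 5079.6, 5449 and 3639 without Dap12. The groups overlapped, with array 3 lowest among the Dap12-deficient arrays, and the log2 difference was 0.15 (SE 0.20). Arpc2, a subunit of the core that holds the complex on the mother filament, spanned 3030.4 to 3889 with a difference of -0.10 (SE 0.17). Arpc5, the smallest subunit of the complex, spanned 1931 to 3295 with a difference of -0.14 (SE 0.21). For the 3 subunits, 95% intervals were -0.29 to 0.59, -0.47 to 0.28 and -0.60 to 0.32, so none reached -1 or 1.

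Activators of the complex varied more from culture to culture. Was encodes WASP, the blood cell activator of Arp2/3 whose loss causes Wiskott-Aldrich syndrome, and it was at 78.6, 67.6 and 31.3 in the wild type against 62.4, 89.5 and 85.6 without Dap12. Wild-type array 3 alone was low, the other arrays overlapped, and the difference was 0.39 (SE 0.27, limma adjusted p = 0.632). Wasf2 encodes WAVE2, which acts below Rac in ruffles, and it gave 592, 992 and 815 against 921, 691 and 509.5. Its highest and lowest arrays were wild-type array 2 and Dap12-deficient array 3, and the difference was -0.18 (SE 0.26).

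The unbranched side of filament growth held the widest gap among nucleation and elongation genes. Evl, an Ena/VASP protein that protects growing filament ends from capping, gave 573, 699 and 512 in the wild type against 422, 451 and 187 without Dap12. All 3 Dap12-deficient arrays were below every wild-type array, and array 3 was far below the other arrays of its group. Means were 594 ± 95.4 (SD, n = 3) and 354 ± 145 (SD, n = 3), a 1.68-fold difference. That is -0.81 (SE 0.30, limma adjusted p = 0.397) in log2 terms, with an unadjusted p of 0.0237. The difference became -0.42 without Dap12-deficient array 3 and -0.69 without wild-type array 2, and the unadjusted p was then 0.0749 and 0.0882, respectively. It was -0.43 with a myelin term in the model and -2.29 with a term for Y-linked genes, with limma adjusted p-values of 0.665 and 0.509. On a much dimmer probe set, at 24.9 to 42.3, it was -0.10 (limma adjusted p = 0.875). That set is the brightest of Evl with no x, s or a mark in its name.

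Vasp, the founding member of the same family, showed a like pattern on array 3 only. Its signals were 470.0, 539 and 529.6 in the wild type against 469.8, 498 and 225 without Dap12, so that Dap12-deficient array 3 stood apart and the other 5 lay close together. The difference was -0.43 (SE 0.28, limma adjusted p = 0.613) and -0.08 without that array. Fmnl1, a formin of blood cells, was dim at 7.83 to 36.3, with wild-type array 2 highest, and its difference was -0.21 (SE 0.28). Over the 8 measured genes of nucleation and elongation, 6 had differences below 0 and 2 above, with a median of -0.16.

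**Figure D2:**
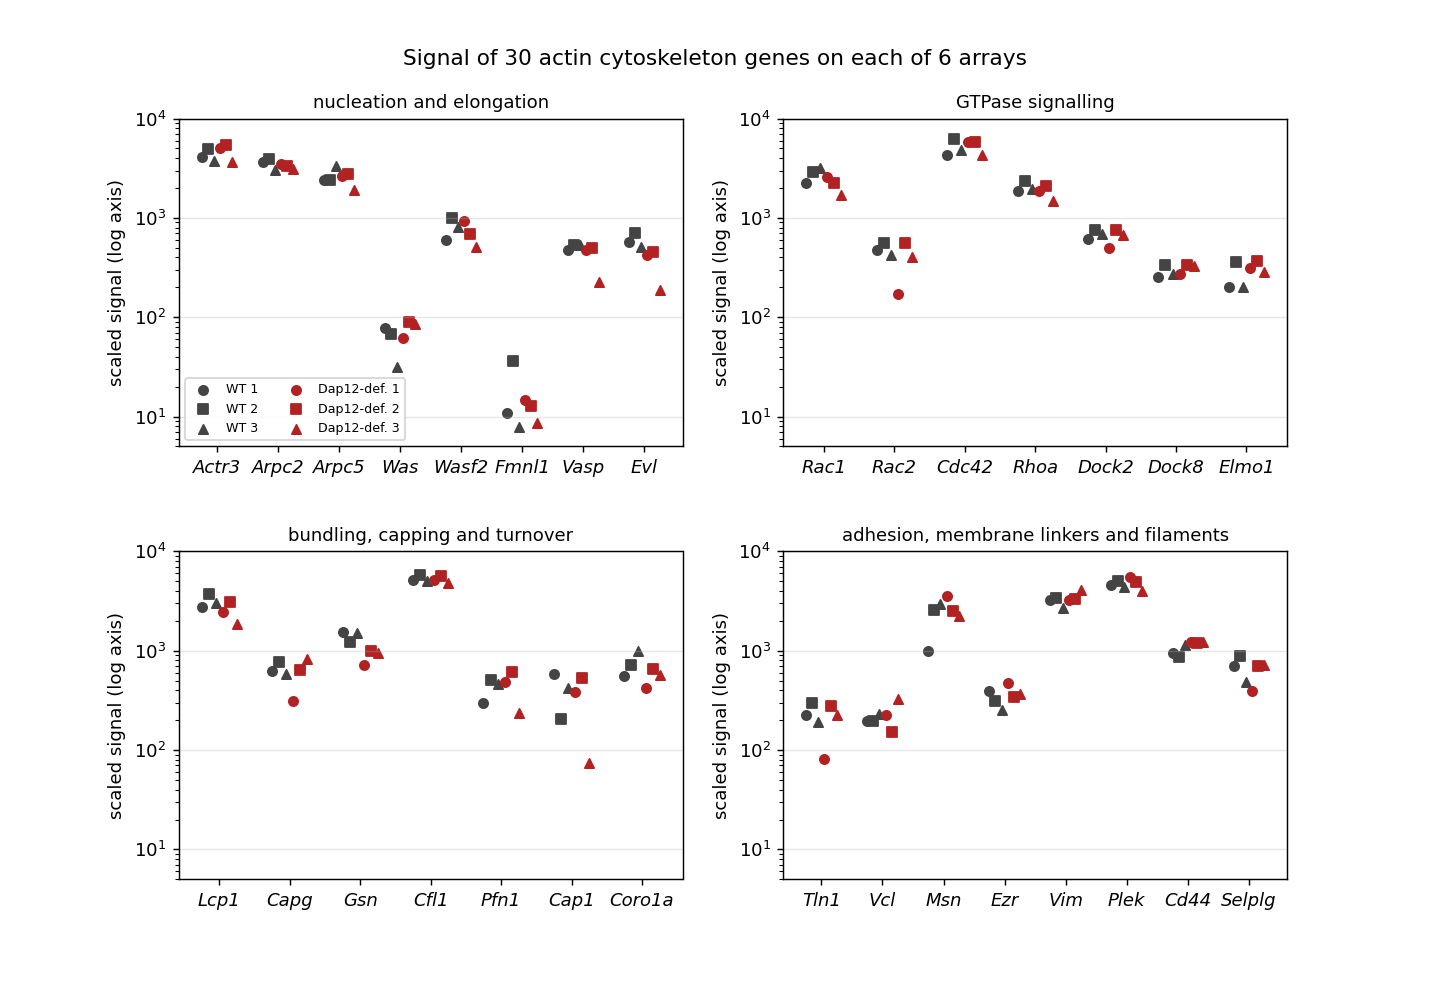
Scaled signal (y axis, log axis) of 30 genes on each of 6 arrays, in 4 panels by role; grey symbols are wild-type and red symbols Dap12-deficient arrays, and the symbol shape gives the array number. Groups overlap for 27 genes, and single arrays stand apart for genes such as Rac2 (171 on Dap12-deficient array 1) and Cap1 (73.6 on Dap12-deficient array 3).

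Of the 4 GTPases, Cdc42 and Rhoa had differences nearer to 0 than the Rac genes. Cdc42, which drives finger-like protrusions, gave 4307, 6255 and 4807 against 5866, 5856 and 4332, overlapping throughout, with a difference of 0.07 (SE 0.20). Rhoa, which drives contraction through ROCK kinases, spanned 1493 to 2351 with a difference of -0.19 (SE 0.19). Rac1, the ubiquitous Rac, was at 2222, 2875 and 3152 in the wild type against 2570, 2234 and 1710.5 without Dap12. Its groups overlapped, the difference was -0.34 (SE 0.21, limma adjusted p = 0.593), and a second probe set gave -0.38. Rac2 is the blood cell form that also feeds the phagocyte NADPH oxidase. It gave 479, 556 and 427 against 171, 561 and 403, so that Dap12-deficient array 1 alone was low and array 2 matched the highest wild-type array. The difference of Rac2 was -0.49 (SE 0.35, limma adjusted p = 0.64), and -0.03 without that array.

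Rac and Cdc42 activators showed no shared direction. Dock2, the Rac activator that leukocytes need to migrate, gave 619, 762 and 693 against 501, 747 and 668 and a difference of -0.13 (SE 0.21). Dock8, an activator of Cdc42 in leukocytes, spanned 253 to 339 with a difference of 0.11 (SE 0.20). Dimmer probe sets of Dock8 had the opposite sign, at -0.14 (SE 0.22) and -0.48 (SE 0.19). The latter, at 12.8 to 35.3, had all Dap12-deficient arrays below wild-type, with an unadjusted p of 0.0329 (limma adjusted p = 0.428). Elmo1, the partner of Dock1 and Dock2 that acts below engulfment receptors, gave 203, 362 and 204 in the wild type against 316, 364 and 288 without Dap12. Wild-type array 2 was level with the highest Dap12-deficient array and the other 2 wild-type arrays were lower than all of them, a difference of 0.36 (SE 0.25, limma adjusted p = 0.625), or 0.62 (adjusted p = 0.526) without wild-type array 2. For 6 of the 7 genes of GTPase signalling the 95% interval lay between -1 and 1, Rac2 being the exception (-1.27 to 0.29).

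Gsn had the smallest p of the members. It encodes gelsolin, which severs filaments and caps their fast-growing ends in response to calcium, and its brightest probe set gave 1553, 1228 and 1522 in the wild type against 725, 991 and 956 without Dap12. Every Dap12-deficient array lay below every wild-type array. Means were 1434 ± 179.7 (SD, n = 3) and 890.5 ± 144 (SD, n = 3), a 1.61-fold difference. In log2 terms this was -0.68 (SE 0.20, limma adjusted p = 0.335), with a 95% interval of -1.12 to -0.25 and an unadjusted p of 0.00573. Leaving out each array in turn gave -0.79 to -0.54, and the unadjusted p stayed under 0.05 each time. Gelsolin is also made by oligodendrocytes, whose marker Mbp (myelin basic protein) gave 5535, 3839 and 5283 against 4714, 1142 and 358 on the same arrays. Within the Dap12-deficient group, Mbp was highest on array 1, where this probe set of Gsn was lowest. The other 3 bright probe sets of Gsn were highest on array 1, at 812 against 658 and 724, 929 against 614 and 713, and 238 against 229.7 and 188 on arrays 2 and 3. With the mean of 5 myelin genes as a term in the model, the difference of Gsn was -0.82 (limma adjusted p = 0.235). Those 5 genes were themselves lower without Dap12, with log2 differences of -2.34 to -1.15. The term thus overlaps with the genotype, and the value of -0.82 cannot separate the 2. With a term for 3 Y-linked genes the difference of Gsn was -0.14 (limma adjusted p = 0.961). Whether the Y-linked term also overlaps with the genotype is not reported here, so its values for Gsn and Evl are given without a reading. The part of oligodendrocyte RNA in the values of Gsn was not tested.

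Other bundling and capping genes overlapped between the groups. Lcp1, which encodes the leukocyte bundling protein L-plastin, gave 2778, 3706 and 2999 against 2483, 3108 and 1864. Dap12-deficient array 3 was lowest, and the difference was -0.37 (SE 0.22, limma adjusted p = 0.58), or -0.17 without it. Capg, a macrophage capping protein of the gelsolin family that does not sever, gave 620.3, 769.6 and 582 against 313, 636 and 834. Dap12-deficient array 1 was the lowest and array 3 the highest of all 6, and the difference was -0.24 (SE 0.31).

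Turnover genes ranged from the steadiest to the least steady of the set. Cfl1, which encodes cofilin, the protein that takes old filaments apart, spanned only 4856 to 5779, a 1.19-fold range over 6 arrays, and its difference was -0.03 (SE 0.16). Pfn1, which encodes profilin, the carrier of actin monomers to growing ends, gave 299, 510.3 and 465 against 482, 617 and 238 and a difference of 0.00 (SE 0.33). Cap1, which recycles actin monomers with cofilin, gave 584, 205 and 419 against 387, 535 and 73.6. Its highest and lowest arrays differed 7.94-fold, wild-type array 2 and Dap12-deficient array 3 being low, and the difference was -0.51 (SE 0.59), or 0.29 without the latter. A second probe set of Cap1 was low on the same pair of arrays, at 55.8 and 34.1 against 123 to 153 on the other 4.

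Coro1a encodes coronin 1A, a leukocyte protein that restrains Arp2/3 and aids filament turnover. Its brightest probe set gave 559, 725 and 996 in the wild type against 422, 661 and 564 without Dap12, where the groups overlapped. The difference was -0.44 (SE 0.25, limma adjusted p = 0.564). A second probe set gave 641, 829.7 and 826 against 364, 639 and 487, a difference of -0.63 (SE 0.23) with an unadjusted p of 0.0205 (limma adjusted p = 0.387). On that probe set the nearest arrays of the groups were 639 and 641, so the gap between groups was slight. Over the 7 genes of bundling, capping and turnover, 6 differences were below 0 and 1 was above, with a median of -0.37, and 1 of 7 had an unadjusted p under 0.05.

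Genes of adhesion, membrane linkers and filaments leaned the other way as a count, with 6 of 8 differences above 0 and a median of 0.15. Over all genes, 5820 of 12875 lay above 0, with a median of -0.03. Of the 8, 0 had an unadjusted p under 0.05. Under the common median scale Vcl, Vim and Plek turned below 0, leaving 3 of the 8 above. Other adhesion and membrane linker genes went the opposite way, with 14 of 19 below 0 and a median of -0.25. Msn, which encodes moesin, the main ERM protein of leukocytes, gave 983, 2564 and 2969 against 3532, 2500.5 and 2218. Wild-type array 1 was far below the other 5, and the difference of 0.46 (SE 0.37, limma adjusted p = 0.676) became -0.03 without it. A second, dimmer probe set of Msn gave 46.5, 108 and 44.5 against 116, 128 and 84.2, with wild-type arrays 1 and 3 low. Its groups overlapped, and its difference was 0.67 (SE 0.29), with an unadjusted p of 0.0411 and a limma adjusted p of 0.453. Ezr, which encodes ezrin, another ERM protein, gave 393, 312 and 252 against 474, 339 and 364, with overlap and a difference of 0.29 (SE 0.22). Plek, which encodes pleckstrin, a substrate of protein kinase C in blood cells, gave 4554, 4998 and 4387 against 5509, 4946 and 3974 and a difference of 0.04 (SE 0.18).

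Cd44, the hyaluronan receptor that ERM proteins anchor, was nearly level across the Dap12-deficient arrays. It gave 957, 857 and 1145 in the wild type against 1229.7, 1194 and 1211 without Dap12, all of which were above the wild-type arrays. The SD was 17.8 (n = 3) in the Dap12-deficient and 146 (n = 3) in the wild-type group, and the difference was 0.30 (SE 0.18, limma adjusted p = 0.584). A second probe set of Cd44 had the largest difference of any tested member probe set, with 342, 345 and 397 against 1472, 451 and 958. There, Dap12-deficient arrays 1 and 3 were far above wild-type and array 2 slightly above, for a difference of 1.22 (SE 0.35), unadjusted p = 0.00535 and limma adjusted p = 0.335. Another, dimmer probe set gave 0.19. Selplg encodes the selectin ligand PSGL-1, which leukocytes use to roll on vessel walls. It gave 704, 880.1 and 486 against 392, 699 and 722, with wild-type array 3 and Dap12-deficient array 1 low, and a difference of -0.20 (SE 0.28).

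At adhesion sites, Tln1 and Vcl did not share a direction. Tln1, which encodes talin, the protein that binds and activates integrins, gave 226, 301 and 190.1 against 81.7, 275 and 228. Dap12-deficient array 1 alone was low, and the difference of -0.40 (SE 0.37) became 0.09 without it. Vcl, which encodes vinculin, the protein that strengthens the talin link under load, gave 196, 197 and 231 against 227, 153 and 326. The Dap12-deficient arrays held both the lowest and the highest value, and the difference was 0.11 (SE 0.26). Vim encodes the intermediate filament vimentin, which is abundant in activated microglia, astrocytes and mesenchymal cells. It gave 3231, 3375 and 2717 against 3271, 3310.1 and 4082, with Dap12-deficient array 3 highest, and a difference of 0.19 (SE 0.18).

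The 30 genes had 76 probe sets, of which 67 were bright enough to be tested, and these gave a check within genes. At an unadjusted p under 0.05 there were 9, beside 10.7% of all 27022 probe sets, and none passed after adjustment. Of the 9, Gsn had 4, and Evl, Coro1a, Msn, Cd44 and Dock8 had 1 each. Of 37 further tested probe sets in 22 genes, 23 had the sign of the brightest probe set and 14 the opposite sign. The opposite signs were in Actr3, Arpc2, Wasf2, Dock2, Dock8, Capg, Gsn, Cfl1, Coro1a, Tln1 and Plek. Arpc2, for example, gave -0.10 with its brightest probe set and 0.70 with a dim one of 6.51 to 50.8.

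For Gsn the probe sets can be set side by side. The 3 bright sets beside the brightest gave -0.83 (SE 0.20), -0.59 (SE 0.23) and -0.83 (SE 0.22), and on all 4 the Dap12-deficient arrays lay below the wild-type arrays. A further, dim set, at 19.3 to 46.9, gave 0.33 (SE 0.22). The set at 341, 361 and 516 against 238, 229.7 and 188 is the only one of the bright 4 whose name carries no mark for probes that may bind other transcripts. Evl did not show such accord, with -0.49, -0.10 and -0.07 on its dimmer sets. Dap12-deficient array 3 was the lowest array on all 4 sets of Evl. Of the brightest probe sets, those of Rac1, Cdc42, Rhoa, Dock2, Gsn, Cfl1 and Vim carry such a mark, so signal from related transcripts may enter their values.

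**Figure D3:**
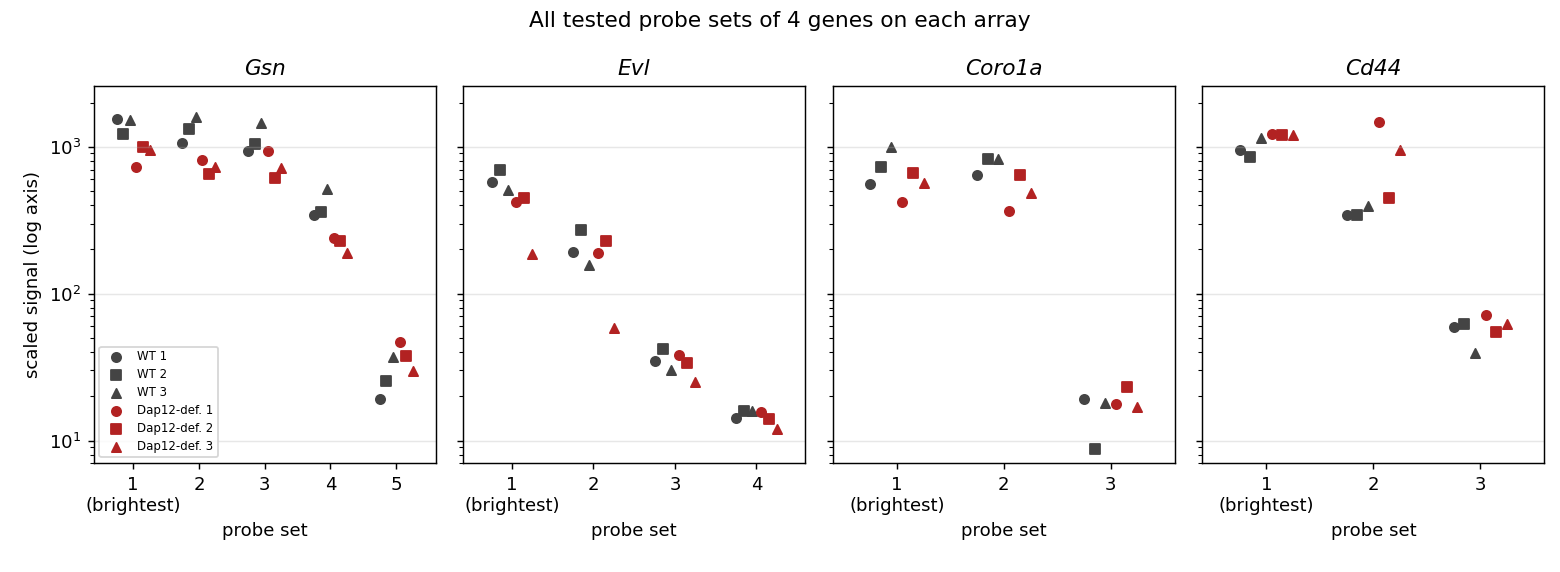
Scaled signal (y axis, log axis) of every tested probe set (x axis, in order of brightness) of Gsn, Evl, Coro1a and Cd44 on each array; grey symbols are wild-type and red symbols Dap12-deficient arrays. On the first 4 sets of Gsn all red symbols lie below the grey ones, while the second set of Cd44 has red symbols at 1472 and 958 far above the grey ones.

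Averaged over genes, arrays of both groups overlapped. The mean log2 level of the 30 members, set to 0 at the wild-type mean, was -0.10, 0.14 and -0.05 for the wild type, against -0.15, 0.08 and -0.27 on Dap12-deficient arrays. Over 12875 genes, many more than the 30 averaged here, the mean stayed between -0.06 and 0.02. Bundling, capping and turnover genes were at -0.41, 0.06 and -0.62 on Dap12-deficient arrays, against -0.05 to 0.08 on wild-type arrays. Thus arrays 1 and 3 were below wild-type while array 2 was inside its range. Nucleation and elongation genes were low on Dap12-deficient array 3 alone (-0.51), and genes of adhesion, membrane linkers and filaments overlapped between the groups.

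**Figure D4:**
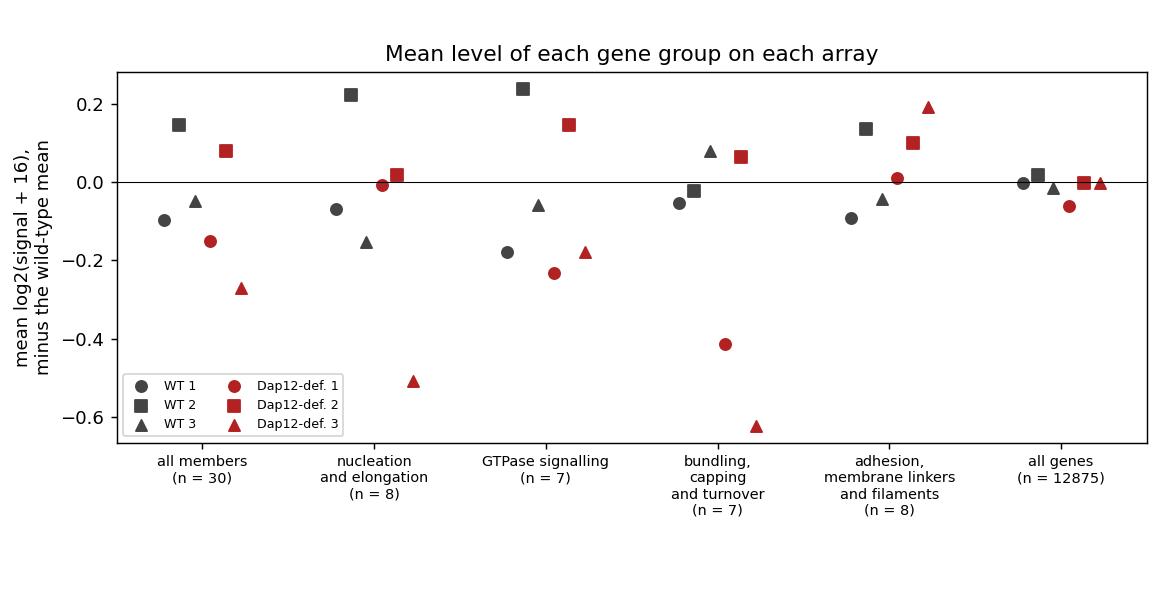
Mean log2(signal + 16) of each gene group on each array, minus the wild-type mean (y axis), for all 30 members, the 4 roles and all 12875 genes (x axis); grey symbols are wild-type and red symbols Dap12-deficient arrays. Dap12-deficient arrays 1 and 3 sit at -0.41 and -0.62 for bundling, capping and turnover, while array 2 sits at 0.06.

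Dap12-deficient array 3 stood apart in these genes. It gave the lowest signal of the 6 arrays for 12 of 30 members (40%), beside 20.7% of all genes, and among them were 5 of 8 nucleation and elongation genes. Wild-type array 2 gave the highest signal for 13 of 30 members (43.3%), beside 19.8% of all genes. On Dap12-deficient array 3, some genes of contractile cells were high. Acta2, the smooth muscle actin, was at 996 against 228 to 390.3 on the other 5 arrays. Tagln, which encodes the calponin-related protein transgelin, was at 188 against 32.1 to 45.9. Des, on the same marker list, was not high there, at 15.6 against 10.0 to 20.8. The summed signal of 7 smooth muscle and pericyte markers was 1342 on array 3 and 312 to 476 on the other arrays. Acta2 made up the largest part of that sum, and Myh11 and Rgs5 were below the signal needed for testing. The 11 astrocyte markers also had their highest sum, 1535, on that array, and 11 microglial markers their lowest, 23072 against 28580.2 to 38154 on the others. The part of these cell markers in the values of Evl, Vasp, Lcp1, Cap1, Vim and Vcl was not tested. Without array 3, the median of the 30 members was -0.01, with 15 below 0 and 15 above. It was also -0.01 without wild-type array 2 and -0.02 without Dap12-deficient array 1, and it was -0.24 without Dap12-deficient array 2. Without array 3, Gsn alone had an unadjusted p under 0.05.

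**Figure D5:**
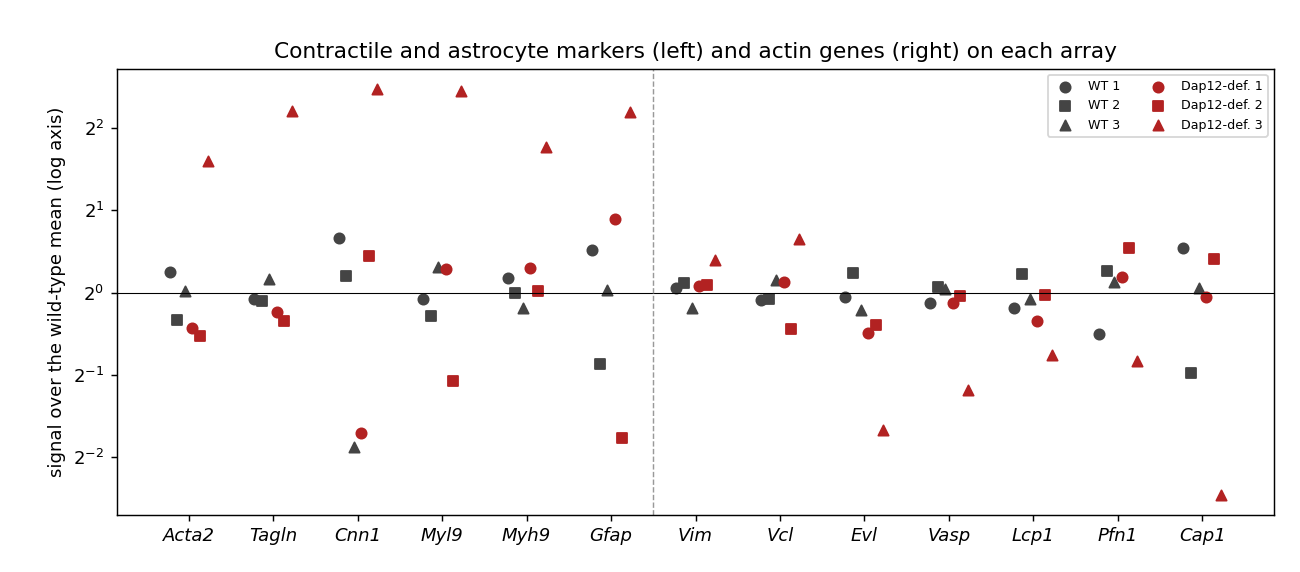
Signal of 13 genes on each array divided by the wild-type mean (y axis, log axis). Left of the dashed line are contractile genes, of which Myh9 is on no marker list, and the astrocyte marker Gfap. Right of it are actin genes, and red triangles are Dap12-deficient array 3. The genes were picked after their values were seen. The red triangle is the highest symbol for the 6 genes on the left and for Vim and Vcl. It is the lowest for Evl, Vasp, Lcp1, Cap1 and Pfn1.

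Beyond the 30 members, 127 other genes of the same machinery were tested, and 0 passed after adjustment. At an unadjusted p under 0.05 there were 18 (14.2%), 5 with values above and 13 below wild-type, beside 9.63% of all genes. Their median was -0.11, with 78 below 0 and 49 above.

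Among 24 other nucleation and elongation genes, 4 had an unadjusted p under 0.05 and the median was -0.02. Nckap1l, which encodes Hem1, the WAVE complex subunit of blood cells, gave 912, 1165 and 1289 against 849, 775 and 686. All Dap12-deficient arrays were below all wild-type arrays, and the difference was -0.52 (SE 0.20, limma adjusted p = 0.392). Abi3, another partner of WAVE, had -0.75 (SE 0.27), with overlap. On the other side of 0 were Wasf1, which encodes WAVE1, at 0.63 (SE 0.25), and Hcls1, a cortactin relative of blood cells, at 0.65 (SE 0.30).

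Of 37 other GTPase signalling genes, 4 had an unadjusted p under 0.05, with a median of -0.05. Iqgap1, a scaffold that binds Rac1 and Cdc42, gave 1616, 1583 and 1538 against 2692, 1854 and 2160, all Dap12-deficient arrays being above, with a difference of 0.48 (SE 0.19, limma adjusted p = 0.411). Dock4, a Rac activator, had 0.57 (SE 0.23). The atypical GTPase genes Rhoh and Rhou had -0.52 (SE 0.22) and -0.47 (SE 0.20), and both had all Dap12-deficient arrays below wild-type.

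Of 33 other bundling, capping and turnover genes, 24 had differences below 0 and 9 above, and 6 had an unadjusted p under 0.05, with a median of -0.17. Wdr1, the cofactor with which cofilin takes filaments apart, had the widest difference of any pathway gene, 1.26 (SE 0.47, limma adjusted p = 0.393). Its arrays gave 104, 345 and 324 against 948, 289 and 669, and Dap12-deficient array 2 lay inside the wild-type range. Cap2, a relative of Cap1, was dim and had 0.48 (SE 0.21). Ssh1, the phosphatase that switches cofilin on, gave 202, 180.1 and 201 against 105, 145 and 139, without overlap, and had -0.54 (SE 0.20). Actn1, the filament crosslinker alpha-actinin 1, also did not overlap and had -0.41 (SE 0.18).

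Actin and myosin genes had a median of 0.02 over 14 genes, with 1 at an unadjusted p under 0.05. That gene was Myo1e, a membrane-binding myosin of endocytosis and adhesion, with 163, 274 and 139.5 against 82.2, 124 and 100.3 and a difference of -0.78 (SE 0.26, limma adjusted p = 0.365). Myh9, the heavy chain of non-muscle myosin IIA, and Myl9, a regulatory light chain, had 0.69 (SE 0.38) and 0.46 (SE 0.42), and each was high on Dap12-deficient array 3 alone (1996 and 78.8). Myl12b, another regulatory light chain, had -0.33 (SE 0.20).

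Other adhesion and membrane linker genes had 14 of 19 differences below 0, a median of -0.25 and 3 at an unadjusted p under 0.05. Tln2, which encodes the second talin, had the smallest p of all pathway genes. It gave 109, 127 and 94.8 in the wild type against 51.4, 62.9 and 56.2 without Dap12, without overlap, for a 1.94-fold difference in means and -0.79 (SE 0.19, limma adjusted p = 0.293) in log2 terms. Fermt3, which encodes kindlin-3, the integrin activator of blood cells, gave 2429.6, 2365 and 2057 against 1159, 2085 and 1589 and had -0.54 (SE 0.22), with array 2 of the Dap12-deficient group inside the wild-type range. Slc9a3r1, a scaffold that binds ezrin, and Apbb1ip, which brings talin to integrins, had 0.28 (SE 0.21) and 0.25 (SE 0.21). Apbb1ip was dim, at 8.11, 7.17 and 7.69 against 20.3, 7.24 and 10.3, with overlap. Only Dap12-deficient arrays 1 and 3 were above the signal needed for testing, so the direction of Apbb1ip rests on them.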

How the data were processed

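RNA was extracted with Trizol and RNeasy and biotin-labelled with a kit that amplifies in a pair of rounds, per the labels' protocols; such amplification can shorten transcripts and dim probes far from the 3' end. Each deposited file holds intensity values of probe sets on a linear scale, and the submitters' processing notes name GCOS, with no version; how GCOS summarised the probes was not stated. The trimmed mean (lowest and highest 2% left out) was 100 on each array.

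Groups came from the labels; array numbers follow the order of deposit, with no pairing. The arrays hold 45101 probe sets; 64 controls were dropped, and 34945 of the rest had 1 gene symbol in the platform annotation, which names no genome build. Probe sets with a mean signal at or above the 40th percentile (8.51) were tested, 27022 in all, on log2(signal + 16), a scale that understates differences of dim genes, with limma 3.58.1 in R 4.3.3 (lmFit, eBayes with intensity trend, two-sided, Benjamini-Hochberg over all probe sets, threshold 0.05). Intervals are 95% moderated t intervals. A gene's brightest tested probe set stood for it in counts over genes. No probe set had the same value on 2 arrays. The steps were tested on simulated data.

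Members, roles, pathway and marker lists were chosen with earlier results of these data known. All members were named, and from each list of other pathway genes the 2 with the smallest p in each direction; markers and second probe sets were in part chosen after their values were seen. Alternatives were pseudocounts of 1 and 64, quantile, common median and cyclic loess scaling, no filter or the 60th percentile, other variance models, array weights, terms for title numbers, sex (Eif2s3y, Kdm5d, Uty) and myelin (Mbp, Mobp, Mog, Mag, Ugt8a), other choices of probe set, and leaving out each array. Plots used matplotlib 3.10.9 in Python 3.11.15.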

Additional observations from a re-analysis of the deposited data

How the results depend on the processing

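No member gene passed the threshold under any of the 21 alternatives, the smallest limma adjusted p of a member being 0.174, for Gsn without Dap12-deficient array 2. The count of members at an unadjusted p under 0.05 was 2 as reported, 7 with a common median, 5 with the sex term, 5 with the myelin term, 1 with unmarked probe sets only, and 1 to 4 when each array was left out. The share of all probe sets at that p was 10.7% as reported and 15.1%, 8.34%, 14.1% and 11.1% under the first 4 of these alternatives, so the counts with a common median and a myelin term rose beside a higher background. Unmarked here means no x, s or a mark in the name, a wider rule than the mark for probes that may bind other transcripts. Under it Evl, Coro1a and Actr3 also fell to dimmer probe sets, and Capg had none. The median member difference was -0.36 with a common median, where the median of all genes also moved, to -0.23. It was -0.13 as reported, -0.04 with the myelin term, -0.24 with the sex term, -0.03 with the mean of all probe sets and 0.00 with unmarked probe sets only, and it ran from -0.24 (without Dap12-deficient array 2) to -0.01 (without wild-type array 2) when each array was left out. Over the whole array, 2 probe sets passed as reported, 5 with a common median, 4 with array weights, 11 with the sex term, 5 with the myelin term, 1 with unmarked probe sets only, and 2 to 172 when each array was left out, the highest counts being 172 without Dap12-deficient array 2 and 15 without array 1 of that group; the cause was not tested. The sign was the same under every alternative that gave a value for 9 members (Was, Vasp, Evl, Rac1, Rhoa, Elmo1, Lcp1, Gsn and Cd44); the other 21 turned in 59 of all 628 recomputed differences, most often Cfl1 (7) and Pfn1 (6), whose differences were near 0. No paired analysis was possible because the labels give no numbers shared between the groups. Small numbers of arrays limit the precision, and dim genes such as Fmnl1 were near background.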
